A study of Mus musculus with 6 samples.

Results

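Irs4, an adaptor protein gene of insulin and growth factor signalling, was followed in the basolateral amygdala of stressed and unstressed mice together with 8 genes known as markers of the medial amygdala or the hypothalamus: Gpr101, Baiap3, Ecel1, Ngb, Peg10, Magel2, Hap1 and Lhx9. These 9 of 26264 gene symbols were picked by name, with earlier results of the stress comparison known, and each was found in every count file. All 9 passed the filter on low counts. Tissue came from 6 male mice, 1 library each. Chronic restraint stress (CRS), the repeated immobilisation of an animal, had been applied to 3 of them, and the other 3 were controls that had not been stressed (Ctrl). The labels used here name no strain, age, genotype or duration of the stress. Total RNA depleted of ribosomal RNA was sequenced in 1 pool spread over several lanes, and each library held between 9859449 and 10233706 counts in genes.

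Insulin receptor substrates are docking proteins: an activated insulin or insulin-like growth factor receptor phosphorylates them, and the phosphorylated tyrosines then recruit phosphoinositide 3-kinase and other partners. Irs1 and Irs2 are widespread in the brain, whereas Irs4 is best known from the hypothalamus. The other 8 genes belong to different pathways and share a place more than a function. In rodents the medial amygdala, the hypothalamus and the strip of neurons that joins them express a number of genes for peptide release, vesicle traffic and imprinted proteins at higher levels than cortex does. The basolateral amygdala borders the central amygdala, the striatum and, towards the midline, the medial amygdala.

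In the CRS libraries Irs4 averaged 1.54 ± 0.650 CPM (read counts scaled to library size with TMM factors), against 5.14 ± 1.15 CPM in the Ctrl libraries (SD, n = 3 each). It was 3.34 times lower under CRS, and no CRS library reached the level of any Ctrl library. The 8 marker genes all had a lower mean under CRS as well, by smaller factors of 1.21 to 2.12. The median of their log2 fold changes was -0.66 with all libraries and -0.22 without CRS 1 and Ctrl 1. Irs4 shared its lowest library, CRS 1, and its highest, Ctrl 1, with 7 of the 8 markers. Relative to the markers it was lower in each of the 3 stressed mice than in any control. The contrast was known when the genes were chosen, which favours both patterns, so they are given without a reading. Lhx9 had an order of its own.

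The start regions of 7 of the 9 genes were found in the RefSeq promoter table (build GRCm38.p6, which is not the build named for the counts), and Ngb and Peg10 were not among them. The 4 shown are those of Irs4, of its X-linked companion Gpr101, of Baiap3, whose library profile was nearest to that of Irs4 among the 8, and of Lhx9, whose profile was farthest. Each runs 5′ to 3′ over 300 bases, from 250 before to 50 after the annotated start, with CpG dinucleotides in capitals.
Irs4, chrX:141725168-141725467, minus strand: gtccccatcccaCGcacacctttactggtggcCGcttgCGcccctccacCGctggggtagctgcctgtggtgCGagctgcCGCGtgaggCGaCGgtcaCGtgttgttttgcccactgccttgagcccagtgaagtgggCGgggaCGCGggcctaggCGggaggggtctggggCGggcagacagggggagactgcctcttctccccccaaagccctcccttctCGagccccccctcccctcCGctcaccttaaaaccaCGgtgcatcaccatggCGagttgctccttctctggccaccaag
Gpr101, chrX:57503708-57504007, minus strand: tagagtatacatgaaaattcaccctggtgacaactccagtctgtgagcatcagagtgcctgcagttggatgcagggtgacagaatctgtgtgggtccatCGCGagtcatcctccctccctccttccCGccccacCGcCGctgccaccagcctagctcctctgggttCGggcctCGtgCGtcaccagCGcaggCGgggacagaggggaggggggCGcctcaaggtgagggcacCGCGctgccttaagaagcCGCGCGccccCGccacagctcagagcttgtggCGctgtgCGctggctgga
Baiap3, chr17:25256315-25256614, minus strand: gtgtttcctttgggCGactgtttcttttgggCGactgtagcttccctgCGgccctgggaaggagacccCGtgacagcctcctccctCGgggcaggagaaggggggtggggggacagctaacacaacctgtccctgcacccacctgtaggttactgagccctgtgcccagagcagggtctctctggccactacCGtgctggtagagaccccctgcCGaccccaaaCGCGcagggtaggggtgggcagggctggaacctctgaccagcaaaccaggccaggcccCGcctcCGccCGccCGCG
Lhx9, chr1:138842395-138842694, minus strand: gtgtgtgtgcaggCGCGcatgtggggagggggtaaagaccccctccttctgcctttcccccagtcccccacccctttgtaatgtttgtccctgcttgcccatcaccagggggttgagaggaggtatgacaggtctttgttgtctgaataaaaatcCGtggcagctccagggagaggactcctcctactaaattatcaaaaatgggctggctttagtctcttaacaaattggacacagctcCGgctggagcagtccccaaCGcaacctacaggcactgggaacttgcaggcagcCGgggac

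The Irs4 and Gpr101 windows held 19 CpG dinucleotides each and that of Baiap3 held 14, while that of Lhx9 held 6. GC content was 67.0% for Irs4, 64.3% for Gpr101, 66.3% for Baiap3 and 55.3% for Lhx9, beside a median of 52.7% over 32851 windows of the same length. Both strands of the 7 genes' windows were searched for 6 motifs. No window held the full palindromic glucocorticoid response element, which 0.00913% of all windows hold, or its half-site AGAACA, which 19% hold. The half-site is part of the full element, so the 2 searches overlap. None held the cAMP response element TGACGTCA (1.79% of all windows), the palindromic oestrogen response element (0.07%) or the LIM homeodomain core TAATTA (5.29%). The TATA box letters TATAAA, which 13.6% of windows hold, were present for Magel2 and Hap1. Relative to the annotated start they began at -165 for Magel2. For Hap1 they began after the start, at 25 in window 1 and at 12 in window 2. These matches describe letters in 1 window a start site.

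Irs4 was one of the weakest of the 9 genes and rested on few reads. The CRS libraries 1 to 3 held 8, 17 and 21 Irs4 counts, and the Ctrl libraries 1 to 3 held 65, 45 and 45. In CPM this was 0.821, 1.71 and 2.09 in the CRS libraries, against 6.46, 4.36 and 4.60 in the Ctrl libraries. The highest stressed library, CRS 3, had a 95% exact Poisson interval of 1.29 to 3.19 CPM, and the lowest control, Ctrl 2, one of 3.18 to 5.84 CPM, 2 intervals that meet at their ends. Such intervals cover counting error only. The fitted log2 fold change, CRS minus Ctrl, was -1.73 ± 0.32 (SE, 95% interval -2.47 to -0.98). Irs4 is one of the genes that this contrast put forward, so these values describe it and are not tested. Over all tested genes, edgeR's quasi-likelihood test with Benjamini-Hochberg adjustment called 0 of 14739 (0%) at an adjusted p under 0.05, and 0 of the 9 genes. At an unadjusted p under 0.05 it held 496 of all genes (3.37%), 1 of the 9 among them. The edgeR likelihood ratio test called 4 genes, of which 1, Irs4, belongs to the 9, the DESeq2 Wald test called 2 and limma-voom 0, none of them among the 9.

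**Figure D1:**
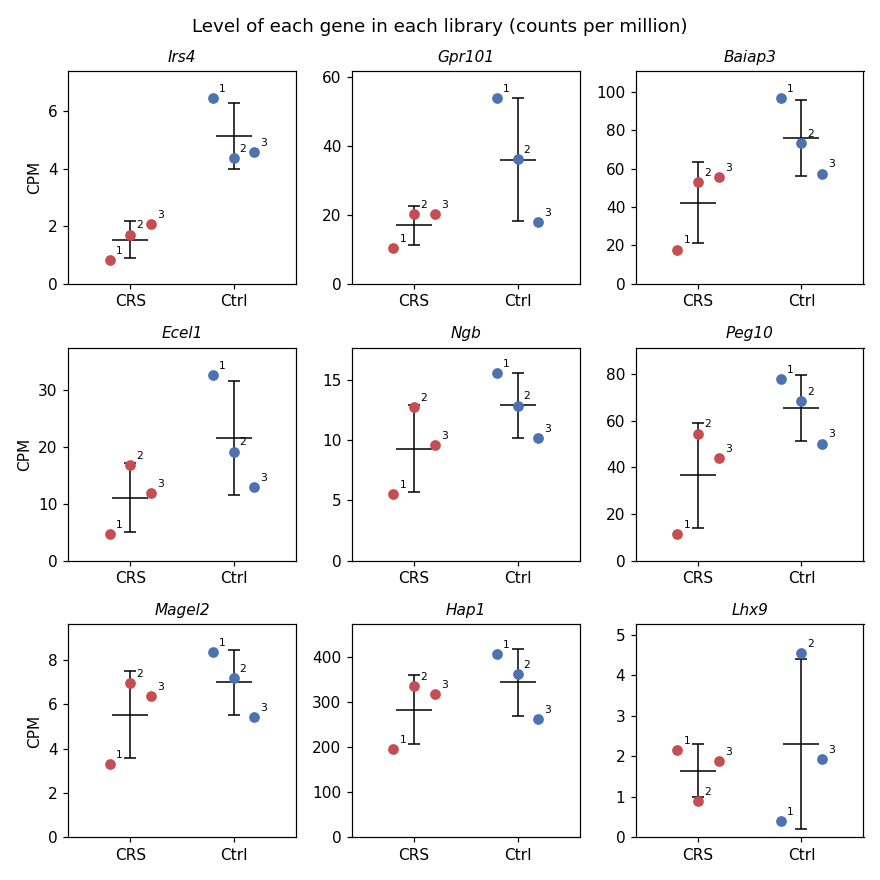
Level of each of the 9 genes in CPM (vertical axes, linear from 0) in the CRS and Ctrl libraries, numbered by replicate; horizontal bars are group means and whiskers 1 SD (n = 3 each). The groups are apart for Irs4 and, narrowly, for Baiap3, CRS 1 is the lowest library in 8 of the 9 panels and Ctrl 1 the highest in 8 of 9, and Lhx9 has its own order.

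Gpr101, an orphan G protein-coupled receptor whose duplication causes gigantism in humans, is X-linked as Irs4 is. It was at 10.5, 20.2 and 20.4 CPM in the CRS libraries, against 54.0, 36.3 and 18.0 CPM in the Ctrl libraries. Ctrl 3 lay below CRS 2 and CRS 3, so the groups overlapped, and the spread within controls was wide. The log2 fold change was -1.08 ± 0.47 (SE), the second largest of the 9. Baiap3, a relative of the Munc13 priming factors that acts in dense-core vesicle traffic, was at 17.9, 53.3 and 55.6 CPM in the CRS libraries, against 97.1, 73.4 and 57.5 CPM in the Ctrl libraries. Its groups did not overlap, but CRS 3 and Ctrl 3 were nearly level. Its log2 fold change was -0.85 ± 0.47. Ecel1, an endothelin-converting enzyme-like membrane protease of neurons, was at 4.62, 16.8 and 11.8 CPM in the CRS libraries, against 32.7, 19.2 and 12.9 CPM in the Ctrl libraries. Here CRS 2 exceeded Ctrl 3, and the log2 fold change was -0.96 ± 0.55.

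The imprinted pair showed unequal differences. Peg10, a retrotransposon-derived gene expressed from the paternal copy, was at 11.3, 54.6 and 44.2 CPM in the CRS libraries, against 78.1, 68.5 and 50.3 CPM in the Ctrl libraries. CRS 1 stood far below the other 5 libraries, and CRS 2 lay above Ctrl 3. Its log2 fold change was -0.84 ± 0.59. Magel2, a MAGE family gene of the region deleted in Prader-Willi syndrome that takes part in endosomal protein recycling, was at 3.29, 6.95 and 6.36 CPM in the CRS libraries, against 8.35, 7.18 and 5.42 CPM in the Ctrl libraries. Both CRS 2 and CRS 3 were above Ctrl 3, and the log2 fold change was -0.33 ± 0.29.

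Ngb and Hap1 differed least in size, along with Magel2. Ngb encodes neuroglobin, the oxygen-binding globin of neurons, and was at 5.54, 12.8 and 9.63 CPM in the CRS libraries, against 15.6, 12.9 and 10.2 CPM in the Ctrl libraries. CRS 2 was nearly level with Ctrl 2, and the log2 fold change was -0.47 ± 0.30. Hap1, the huntingtin-associated trafficking protein that marks hypothalamic and medial amygdala neurons in rodents, was the most abundant of the 9. It was at 196, 337 and 318 CPM in the CRS libraries, against 407, 364 and 262 CPM in the Ctrl libraries. Ctrl 3 was below CRS 2 and CRS 3, and the log2 fold change was -0.28 ± 0.25.

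Lhx9, a LIM homeodomain transcription factor of the developing forebrain and gonad, was the exception in pattern. It had 21, 9 and 19 counts in the CRS libraries, against 4, 47 and 19 counts in the Ctrl libraries. The lowest and the highest library were thus both controls, Ctrl 1 at 0.398 CPM and Ctrl 2 at 4.56 CPM. Their exact Poisson intervals, 0.108 to 1.02 and 3.35 to 6.06 CPM, were apart. The log2 fold change was -0.49 ± 0.74, and without Ctrl 2 it was 0.51.

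All 9 genes had a fitted log2 fold change below 0, as did 51.6% of the 14739 genes tested. CRS libraries were below Ctrl libraries without overlap for 2 of the 9, Irs4 and Baiap3, against 4.48% of all tested genes. The contrast was used to choose the genes, so these counts are given without a reading. The median log2 fold change of the 8 markers was -0.66, beside -0.0044 over all tested genes.

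The order of the libraries was compared next. As the contrast was used to choose the genes, these counts too are given without a reading. CRS 1 was the lowest of the 6 libraries for 8 of the 9 genes, Lhx9 excepted, whereas it was the lowest for 23.2% of all tested genes. Ctrl 1 was the highest control for the same 8 genes, against 31.5% of all tested genes. Ctrl 3 was the lowest control for 7 of the 8 markers, Lhx9 again excepted, while for Irs4 Ctrl 2 and Ctrl 3 were nearly level. The share of all tested genes with Ctrl 3 as the lowest control was not computed. Between the lowest and the highest library, Irs4 spanned 2.70 on the log2 scale, where the median of the 500 genes nearest in level was 0.87. Lhx9 spanned 2.99, between 2 control libraries. Ecel1 and Peg10 spanned 2.77 each, Baiap3 2.43 and Gpr101 2.34. Ngb spanned 1.46, Magel2 1.29 and Hap1 1.05, where the median of the 500 genes nearest to Hap1 in level was 0.25.

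The counting error behind these values depends on the number of reads. The SD of log2 CPM within groups was 0.48 for Irs4, and its reads alone give an SD of 0.32. For Baiap3 the 2 values were 0.70 and 0.07, for Peg10 0.89 and 0.08, and for Hap1 0.38 and 0.03. For Lhx9 they were 1.14 and 0.43.

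**Figure D2:**
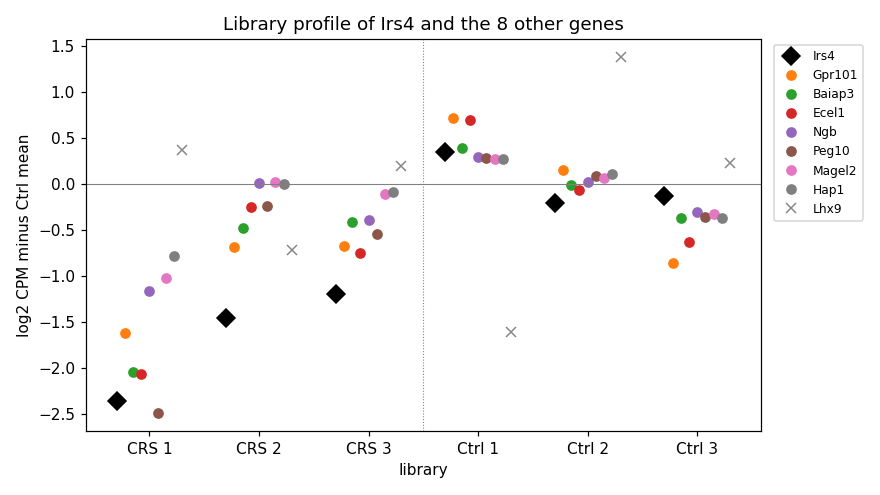
Log2 CPM of each gene minus its Ctrl mean (vertical axis) in each of the 6 libraries (horizontal axis, CRS left of the dotted line); diamonds are Irs4, crosses Lhx9 and circles the other 7 genes. In CRS 2 and CRS 3 Irs4 lies at -1.46 and -1.20, below the 8 other genes, and in CRS 1 it lies among them.

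Whether Irs4 followed the markers was then read library by library. Relative to the Ctrl mean, Irs4 was at -2.37, -1.46 and -1.20 on the log2 scale in CRS 1 to 3, against 0.34, -0.21 and -0.13 in Ctrl 1 to 3. The mean of the 8 markers on the same scale was -1.36, -0.30 and -0.35 in CRS 1 to 3, against 0.16, 0.21 and -0.38 in Ctrl 1 to 3. CRS 2 and CRS 3 thus lay within the control range for the markers and outside it for Irs4. The difference, Irs4 minus the markers, was -1.01, -1.16 and -0.85 in the CRS libraries, against 0.18, -0.42 and 0.24 in the Ctrl libraries. It averaged -1.01 ± 0.16 in CRS and 0 ± 0.36 in Ctrl libraries (SD, n = 3 each), the Ctrl mean being 0 by construction. The 2 groups of values did not overlap. Irs4 was put forward by this same contrast, so the gap is described and not tested. With Lhx9 left out of the markers, a choice made after seeing the data, the difference between groups was -0.92 in place of -1.01.

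The ratio was also taken on raw reads, without scaling. Irs4 took 0.325%, 0.340% and 0.444% of the reads of the 9 genes in CRS 1 to 3, against 0.923%, 0.740% and 1.09% in Ctrl 1 to 3. Hap1 supplies most of these reads, so the share is mainly Irs4 relative to Hap1. The 95% exact binomial interval was 0.275 to 0.678% for CRS 3, the highest stressed library, and 0.540 to 0.989% for Ctrl 2, the lowest control, so these 2 overlap within counting error.

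The fold changes were then recomputed with libraries left out. Without CRS 1 and Ctrl 1 together, the log2 fold change of Irs4 was -1.23, and the median of the 8 markers was -0.22. Gpr101 was then at -0.42, Baiap3 at -0.27, Peg10 at -0.27, Ecel1 at -0.17 and Ngb at -0.05. Magel2 and Hap1 turned above 0, to 0.08 and 0.06, while Lhx9 was at -1.22. With 1 library left out at a time, Irs4 ran from -2.01 to -1.43. Without CRS 1 alone the log2 fold change was -0.41 for Peg10 and -0.83 for Gpr101, and without Ctrl 1 alone it was -0.67 for Gpr101.

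**Figure D3:**
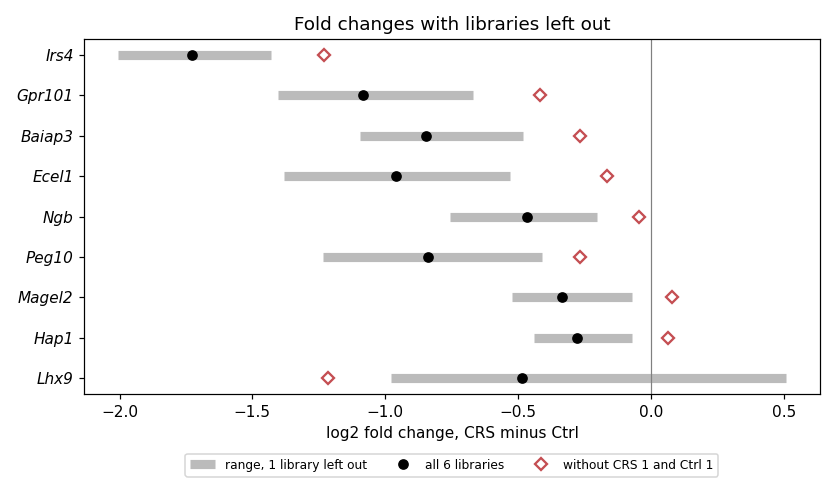
Fitted log2 fold change, CRS minus Ctrl (horizontal axis), for the 9 genes; filled circles use all 6 libraries, grey bars span the 6 fits with 1 library left out, and open diamonds leave out CRS 1 and Ctrl 1. The diamond of Irs4 is at -1.23, while those of 7 markers lie between -0.42 and 0.08 and that of Lhx9 lies at -1.22.

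Likeness to Irs4 was measured as the root mean square difference between centred log2 CPM profiles over the 6 libraries, where 0 means identical profiles. It was 0.42 for Baiap3, 0.50 for Gpr101 and Ecel1 and 0.51 for Peg10, which placed these 4 among the nearest 44 of 14620 genes with a mean of at least 1 CPM. Ngb was at 0.62 (rank 154), Magel2 at 0.68 (rank 285) and Hap1 at 0.72 (rank 472), where the median over those genes was 0.93. Lhx9 was at 1.44 (rank 14539). All profiles share the same 6 libraries, and Irs4 itself carries counting noise. The distance also includes the difference between CRS and Ctrl libraries, and the markers were chosen with that contrast known. A near rank is thus partly fixed by the choice of genes, so distances and ranks are given without a reading.

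The 5 genes nearest to Irs4 outside the lists were Sp7, Greb1, Arhgap36, Nexn and Esyt3, at distances of 0.27 to 0.35. Sp7, the zinc finger factor osterix known from bone, was at 0.616, 1.71 and 1.59 CPM in the CRS libraries, against 3.58, 2.62 and 3.37 CPM in the Ctrl libraries. Greb1, an oestrogen-induced gene, was at 0.411, 0.403 and 0.596 CPM in the CRS libraries, against 2.88, 1.55 and 1.84 CPM in the Ctrl libraries. Arhgap36, an X-linked modulator of hedgehog signalling and protein kinase A that is expressed in hypothalamus, averaged 4.21 ± 2.39 CPM in CRS and 8.94 ± 1.74 CPM in Ctrl libraries (SD, n = 3 each). Nexn, an actin-binding protein gene, averaged 1.74 ± 1.12 CPM in CRS and 5.25 ± 1.31 CPM in Ctrl libraries. Esyt3, an extended synaptotagmin, averaged 2.28 ± 1.08 CPM in CRS and 4.44 ± 0.628 CPM in Ctrl libraries. These are all genes of low level, and a likeness to Irs4 includes its difference between groups, and the groups of these 5 do not overlap.

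Per kilobase of annotated exons (GENCODE M21 lengths), the order of levels in the Ctrl libraries was Hap1, Baiap3, Peg10, Ngb, Gpr101, Ecel1, Magel2, Irs4 and Lhx9. Hap1 stood at 75.3 ± 20.2 CPM per kilobase in CRS and 91.4 ± 19.8 in Ctrl libraries, and Baiap3 at 8.27 ± 4.14 in CRS and 14.9 ± 3.90 in Ctrl libraries. From Baiap3 down to Ecel1 every pair of neighbours in that order overlapped in the Ctrl libraries. Magel2 stood at 1.19 ± 0.425 in CRS and 1.51 ± 0.319 in Ctrl libraries. Irs4 stood at 0.245 ± 0.103 in CRS and 0.817 ± 0.183 in Ctrl libraries, and Lhx9 at 0.174 ± 0.0693 in CRS and 0.242 ± 0.221 in Ctrl libraries. In the Ctrl libraries Irs4 overlapped neither Magel2 nor Lhx9, whereas in the CRS libraries its range overlapped that of Lhx9. The related substrates were expressed more strongly, Irs1 at 4.79 ± 0.288 in CRS and 4.68 ± 0.400 in Ctrl libraries and Irs2 at 11.0 ± 0.321 in CRS and 10.6 ± 0.766 in Ctrl libraries, all in CPM per kilobase.

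The rest of the insulin receptor substrate pathway was read next. Of 21 tested genes for receptors, substrates and their effectors, 6 were lower and 15 higher under CRS, the median log2 fold change was 0.03, and 0 passed the threshold in either direction. Irs1 was at 0.03 ± 0.09 and Irs2 at 0.05 ± 0.07 (SE). The 3 with the smallest unadjusted p were the kinase Akt2 at -0.18 ± 0.09, the phosphoinositide 3-kinase subunit Pik3r2 at 0.22 ± 0.14 and the phosphatase Ptpn1 at 0.11 ± 0.07. Irs3 had at most 3 counts in any library.

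Relatives of the 9 genes were also read. Of 21 tested paralogs 11 were lower and 10 higher under CRS, with a median of -0.08, and 0 passed the threshold. Ece2, an endothelin-converting enzyme of the protease family of Ecel1, was at -0.35 ± 0.11 and lower without overlap. Lhx2, the nearest relative of Lhx9, was at 0.36 ± 0.09 and higher without overlap, and Unc13b, a Munc13 gene, at 0.30 ± 0.11. Trak1, a kinesin adaptor related to Hap1, was also higher without overlap, at 0.07 ± 0.06. Of 12 partners of Hap1 in huntingtin-associated transport, 4 were lower and 8 higher, with a median of 0.04 and 0 past the threshold. Among them the kinesin light chain Klc2 was at 0.14 ± 0.09, Ahi1, a Joubert syndrome gene whose protein binds Hap1, at -0.20 ± 0.13, and huntingtin itself, Htt, at 0.11 ± 0.07.

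Imprinted genes other than Peg10 and Magel2 came next. Of 25 tested, 16 were lower and 9 higher under CRS, at a median of -0.09 on the log2 scale, and 0 passed the threshold. Sgce, the neighbour of Peg10 and imprinted with it, was at 17.4 ± 2.10 CPM in CRS and 20.3 ± 1.44 CPM in Ctrl libraries (SD, n = 3 each), with a log2 fold change of -0.23 ± 0.12 (SE). Ndn, the MAGE family neighbour of Magel2, was at -0.09 ± 0.08 on the log2 scale. The growth regulator Plagl1 was at -0.37 ± 0.19 and Usp29, a ubiquitin protease gene next to Peg3, at -0.35 ± 0.21.

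The label of the set was checked against markers of both regions. Of 25 hypothalamic markers other than the 9 genes, 6 passed the filter and 19 did not. The 19 include the peptide genes Oxt, Hcrt, Pmch, Agrp and Ghrh and the factors Nkx2-1, Rax and Nr5a1. Together the 19 had 20, 24 and 26 counts in CRS 1 to 3, against 42, 34 and 27 counts in Ctrl 1 to 3. Each had at most 15 counts in any library, and 4 of them had 0 counts in every library. These defining hypothalamic genes were thus at or near 0. The summed level of the 6 tested was 132 to 228 CPM in CRS and 150 to 243 CPM in Ctrl libraries. Of these 6, 5 were lower and 1 higher under CRS, with a median of -0.24 and 0 past the threshold. Resp18, an endocrine secretory granule gene, was at -0.15 ± 0.11, the thyrotropin-releasing hormone gene Trh at -0.84 ± 0.65 and Pomc at -0.34 ± 0.50.

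Medial amygdala markers were partly present. Of 20 listed genes 11 were tested, 7 lower and 4 higher under CRS, with a median of -0.22 and 0 past the threshold, and the median was 0.01 without Ctrl 2. Their summed level was 186 to 309 CPM in CRS and 208 to 311 CPM in Ctrl libraries. Tac2, the neurokinin B gene, was at 4.11, 7.65 and 5.46 CPM in the CRS libraries, against 10.5, 9.02 and 7.97 CPM in the Ctrl libraries, without overlap (-0.67 ± 0.23). The oestrogen receptor gene Esr1 was at 10.3, 9.67 and 9.34 CPM in the CRS libraries, against 12.8, 10.6 and 14.0 CPM in the Ctrl libraries (-0.35 ± 0.14). For Esr1, CRS 1 was the highest stressed library, unlike for Irs4. Foxp2, a forkhead factor that also marks the intercalated cells, was at -0.68 ± 0.44. It was at 11.4, 32.5 and 32.8 CPM in the CRS libraries, against 54.5, 34.3 and 34.1 CPM in the Ctrl libraries, narrowly without overlap. The progesterone receptor gene Pgr was at 0.13 ± 0.18. The 9 markers that did not pass the filter include Cyp19a1, Ucn3, Otp and Sim1. Together these 9 had 6, 23 and 16 counts in CRS 1 to 3, against 59, 49 and 19 counts in Ctrl 1 to 3.

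Markers of neighbouring tissue also differed between libraries, with CRS 1 lowest and Ctrl 1 highest for the striatal list as for Irs4 and the markers other than Lhx9. All 20 tested genes of the striatal and central amygdala list had a lower mean under CRS, with a median of -0.85 and 0 past the threshold, and CRS 1 was the lowest library for all 20. The median was -0.54 without CRS 1, -0.52 without Ctrl 1 and -0.18 without both. The level of this list relative to the Ctrl mean was -2.47, -0.53 and -0.44 in CRS 1 to 3, against 0.57, -0.43 and -0.14 in Ctrl 1 to 3. Its summed level was 512 to 1485 CPM in CRS and 1329 to 2680 CPM in Ctrl libraries. Irs4 minus this list was 0.10, -0.93 and -0.77 in CRS 1 to 3, against -0.23, 0.22 and 0.01 in Ctrl 1 to 3, so that in CRS 1 Irs4 was no lower than the striatal markers and in CRS 2 and CRS 3 it was. Ido1, Ebf1 and Adcy5, which are expressed in striatal neurons, were at -1.52 ± 0.50, -0.84 ± 0.28 and -0.52 ± 0.24. The part of neighbouring tissue in the difference of the 9 genes was not tested. In bulk tissue, fewer cells of a type and less RNA per cell cannot be told apart.

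GABAergic markers summed to 1176 to 1249 CPM in CRS and 1248 to 1578 CPM in Ctrl libraries. Of 14 tested, 10 were lower and 4 higher under CRS, with a median of -0.16, and 0 passed the threshold. Gad2, which makes GABA, was at 220 ± 46.4 CPM in CRS and 321 ± 84.6 CPM in Ctrl libraries (SD, n = 3 each; -0.55 ± 0.24). The vesicular transporter Slc32a1 was at -0.62 ± 0.27 and the homeobox gene Dlx5 at -0.53 ± 0.22. Glutamatergic markers of the basolateral amygdala were higher under CRS for 12 of 12 genes, with a median of 0.14 and 0 past the threshold, and were at -0.08 without CRS 1 and Ctrl 1. Slc17a7, the vesicular glutamate transporter, was at 1089 ± 107 CPM in CRS and 913 ± 184 CPM in Ctrl libraries. No library held less than 719 CPM, so this marker of glutamatergic neurons was present in each. The list summed to 3330 to 3760 CPM in CRS and 2751 to 3786 CPM in Ctrl libraries. Fezf2 was at 0.61 ± 0.46 and Etv1 at 0.29 ± 0.25.

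Glia and ventricle lining varied by library as well. Of 12 oligodendrocyte markers, 12 were lower under CRS with a median of -0.37 and 0 past the threshold, and CRS 1 was the lowest library for 11 of them. Their summed level was 1805 to 2587 CPM in CRS and 2306 to 3640 CPM in Ctrl libraries. The myelin genes Fa2h, Mobp and Mal were at -0.48 ± 0.19, -0.52 ± 0.20 and -0.43 ± 0.19, and without CRS 1 and Ctrl 1 the median was -0.03. Choroid plexus and ependymal markers were high in CRS 2, Ctrl 1 and Ctrl 2 and low in the other 3 libraries. Ttr, the transthyretin gene of the choroid plexus, was at 2.87, 5553 and 8.34 CPM in CRS 1 to 3, against 2128, 3777 and 18.9 CPM in Ctrl 1 to 3. The list summed to 146 to 8988 CPM in CRS and 236 to 6616 CPM in Ctrl libraries. Of its 12 genes 12 were lower under CRS, with a median of -0.39 and 0 past the threshold, and the median was 0.17 without CRS 1. Foxj1, Ccdc153 and Tmem212, genes of motile cilia, were at -0.70 ± 0.85, -0.56 ± 0.69 and -0.40 ± 1.00. Irs4 was low in CRS 2, where Ttr was highest, and in CRS 1, where Ttr was lowest. Any part of choroid plexus tissue in the Irs4 difference was not tested. Without the 3 libraries of high Ttr, with Ctrl 3 as the only control, the log2 fold change of Irs4 was -1.64. It was -0.85 for Peg10, -0.64 for Baiap3, -0.64 for Ecel1, -0.42 for Ngb and -0.22 for Gpr101. For Magel2 it was -0.16, for Hap1 -0.03 and for Lhx9 0.06.

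Across these 11 lists edgeR's quasi-likelihood test called 0 genes. At an unadjusted p under 0.05 it held 1 lower and 2 higher paralogs, 2 lower medial amygdala markers and 1 lower GABAergic marker. It also held 2 lower striatal and central amygdala markers, 2 lower oligodendrocyte markers and 0 genes of the other 6 lists. The share over all tested genes was 3.37% in both directions together. CRS libraries were below Ctrl libraries without overlap for 6 of 20 striatal and central amygdala markers and 3 of 11 medial amygdala markers. The same held for 2 of 14 GABAergic markers, 2 of 12 oligodendrocyte markers, 1 of 21 paralogs and 0 genes of the other 6 lists. The share over all tested genes was 4.48%, and these counts are given without a reading.

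**Figure D4:**
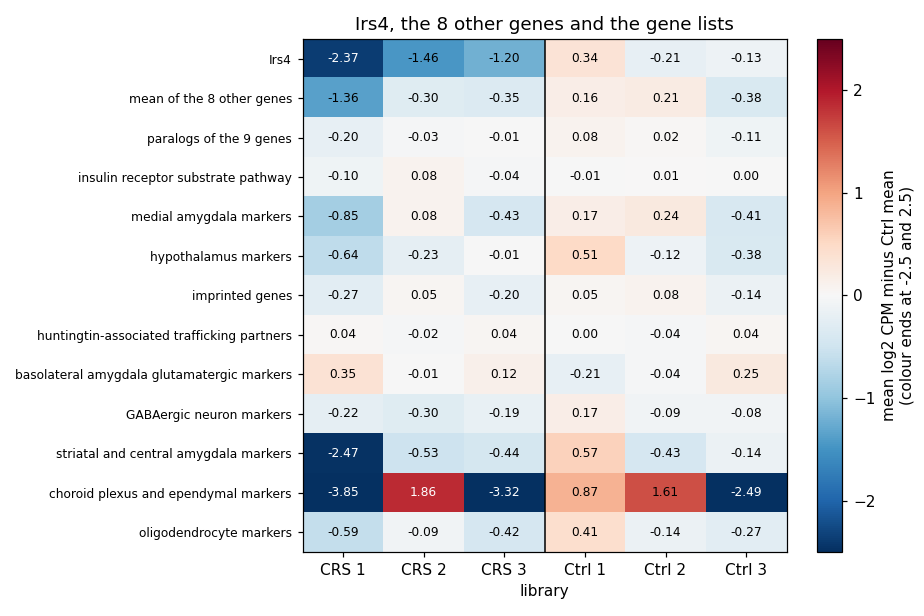
Mean log2 CPM minus the Ctrl mean for Irs4, for the 8 other genes and for each gene list (rows) in the 6 libraries (columns, CRS left of the line); printed numbers are the values, and the colour scale ends at -2.5 and 2.5. Irs4 and the striatal and central amygdala markers are similarly low in CRS 1, at -2.37 and -2.47, while in CRS 2 and CRS 3 Irs4 is lower than that list.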

How the data were processed

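Basolateral amygdala RNA of 3 CRS and 3 Ctrl male mice was measured, 1 library a mouse, and the labels call the mice of a group biological replicates. The values deposited by the authors are raw counts for each gene symbol, 1 file a library, neither normalized nor pooled. FastQC (0.12.1), STAR (2.7.7a), HTSeq (0.13.5), the authors' edgeR (3.42.4) and the build mm39 appear in the submitters' processing notes, which give no roles. No source used here gives the annotation or whether counting used the strand, so reads of overlapping or antisense genes cannot be told apart. Reads assigned to no gene (53.0 to 57.4%), to several places (6.97 to 8.16%) or ambiguously (0.162 to 0.194%) stayed out of library sizes and tests.

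The 9 genes, the lists and the alternatives were chosen with earlier results of these data known. The software was R version 4.3.3 and the packages edgeR (4.0.16), limma (3.58.1) and DESeq2 (1.42.0). The filterByExpr filter (at least 10 counts, and 15 in total) kept 14739 of 26264 symbols. The biological coefficient of variation was 14.3%, and TMM factors ran from 0.983 to 1.02. The main test was edgeR's robust quasi-likelihood F test for CRS minus Ctrl. P-values were adjusted by Benjamini and Hochberg's method across the 14739 genes, and 0.05 was the threshold. Each SE is the size of the log2 fold change divided by the root of F. Log2 levels use a prior count of 2. The procedure was tested on simulated counts. These were drawn gene by gene with no shift shared within a library, so shifts of whole lists by library were not covered. No 2 libraries held identical counts, and the lowest chi-square per gene between libraries was 2.95.

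Named are the 9 genes, for each list the 3 tested genes with the smallest unadjusted p, the 5 genes nearest to Irs4 in profile outside the lists, and Ttr. Other genes named (Irs1, Irs2, Irs3, Ndn, Pgr, Trak1 and those under the filter) were chosen after their values were seen. For 1 list, 1 gene is not reported here. The 9 genes were left out of the other lists when these were counted. List levels are means of log2 CPM over the list's tested genes. Promoter sequences are RefSeq's, and exon lengths GENCODE's for GRCm38, matched by symbol. Alternatives covered normalization, filter, replicate block, other tests, robust estimation, prior count and left-out libraries.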

Additional observations from a re-analysis of the deposited data

How the results depend on the processing

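Of 144 fitted values of the 9 genes under 16 alternatives, 138 kept their direction and moved by less than 1 SD between replicates. Without CRS 1 and Ctrl 1, Magel2 (0.0771) and Hap1 (0.0648) reversed and Irs4 moved to -1.23. Without the 3 libraries of high Ttr, Lhx9 reversed (0.0584) and Gpr101 moved to -0.22. With 1 library left out, Lhx9 ran from -0.98 to 0.51, above 0 without Ctrl 2. Irs4 minus the markers stayed between -1.22 and -0.84 under all 13 alternatives.

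The count of called genes was 4 with the edgeR likelihood ratio test, 2 with DESeq2, 0 to 1 with 1 library left out (1 without Ctrl 3) and 0 otherwise. List medians reversed where they were near 0 or where 1 library led them. With 1 library left out they ran from -0.0828 to 0.0105 for paralogs (above 0 without Ctrl 1), from -0.357 to 0.0453 for hypothalamus markers (above 0 without Ctrl 1) and from -0.288 to 0.0121 for medial amygdala markers (above 0 without Ctrl 2). For choroid plexus markers they ran from -4.30 without CRS 2 to 0.45 without Ctrl 2, with 0.166 without CRS 1 and 0.152 without CRS 3. Without CRS 1 and Ctrl 1 the median was 0.0314 for paralogs, 0.161 for hypothalamus, -0.0799 for basolateral glutamatergic, 0.188 for choroid plexus and -0.0256 for oligodendrocyte markers. Without the 3 libraries of high Ttr it was 0.0684 for paralogs, -0.0423 for the insulin receptor substrate pathway and 0.250 for hypothalamus markers. The cause was not tested.

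With the replicate number as a block, 0 genes were called and Irs4 was at -1.72. Same-numbered libraries correlated across genes, as deviations from group means, at -0.32, 0.53 and 0.28 for numbers 1 to 3. CRS 1 correlated best with Ctrl 3 (0.48), so the numbers were not taken to pair the mice. Depth limits Irs4, Lhx9 and Magel2 most.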

Other observations

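Some listed genes under the filter had counts of uneven distribution, and they were picked out after their values were seen. Lhx8, a LIM homeodomain factor of basal forebrain and pallidal neurons, had 0, 18 and 8 counts in CRS 1 to 3, against 57, 3 and 6 counts in Ctrl 1 to 3. Nkx2-1, a factor of the same territory and of the hypothalamus, had 0, 5 and 2 counts in the CRS libraries, against 15, 1 and 6 counts in the Ctrl libraries. For both genes Ctrl 1 was the highest library and CRS 1 the only one without a count, where a count of 0 allows a level of up to 3 counts, for counting error only. Calcr, the calcitonin receptor gene, had 0, 5 and 6 counts in the CRS libraries, against 13, 16 and 7 counts in the Ctrl libraries. Gal, the galanin gene, had 0, 4 and 0 counts in the CRS libraries, against 12, 16 and 3 counts in the Ctrl libraries. Oxt had 5 counts in CRS 1 and 0 in the other 5 libraries.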
